A study of Mus musculus with 6 samples.

Results

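Bone morphogenetic protein (BMP) signalling was examined in mouse lung 14 days after bleomycin, through 10 genes given by name: the ligands Bmp4 and Bmp6, the receptor Bmpr2, the pseudoreceptor Bambi, the secreted antagonist Grem1, the inhibitory Smads Smad6 and Smad7, and the target genes Id1, Id2 and Id3. All 10 were among the 12393 genes with a probe set annotated to a single symbol, and each was read by its brightest probe set, the one whose mean over all arrays was highest. RNA of homogenised whole lung, freed of trachea and major airways, was hybridised to Affymetrix MOE430A arrays, 1 per mouse. All mice are labelled male wild-type C57BL/6J, 8 to 10 weeks old, and all lungs were taken at day 14. The saline mice (arrays A, B and C) received 50 µl of saline, and the bleomycin mice (D, E and F) received 1 mg/kg of bleomycin in the same volume. Bleomycin damages DNA, and lungs exposed to it through the airways are a common model of fibrosis. The labels name both oropharyngeal and intratracheal delivery, so the route is not settled here.

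BMP ligands bind a complex of type I and type II receptors, which phosphorylates Smad1, Smad5 and Smad9. These move with Smad4 to the nucleus and switch on genes such as Id1, Id2, Id3 and the inhibitory Smads, and the inhibitory Smads in turn restrain the pathway. In the lung, the type II receptor gene BMPR2 is best known from heritable pulmonary arterial hypertension, and gremlin 1, the product of Grem1, has been studied in pulmonary fibrosis.

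Arrays of the same group were alike (Pearson correlation across probe sets 0.986 to 0.995, against 0.965 to 0.985 between groups). The array medians were 7.37 to 7.41 log2 units. On saline B, Xist, the transcript of the inactive X chromosome, stood at 11.40 log2 units, against 7.23 to 7.88 on the other arrays, and the Y-linked gene Eif2s3y stood at 4.05, against 7.23 to 8.02. These values go against the male label of that mouse. Bleomycin D lay farthest out on the first principal component, which held 55.4% of the variance (44.3, against 12.9 for E and 19.8 for F). For the genes of the pathway that passed the test, the values without saline B and without bleomycin D are therefore given as well, and for marker genes the arrays without which a call was lost. Arrays have no read depth, and 3 arrays a group limit the precision.

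The BMP inhibitor Smad6, the pseudoreceptor Bambi and the ligand Bmp6 fell after bleomycin and stood 2.42-fold, 1.83-fold and 2.1-fold lower than after saline. Bmp4, Bmpr2, Smad7, Id1, Id2, Id3 and Grem1 did not pass the test by their brightest probe sets. Of the 10 genes, 3 were called lower and 0 higher at a limma adjusted p under 0.05 (3 lower and 2 higher at an unadjusted p under 0.05). Over all 12393 genes, 1.90% were called lower and 3.70% higher. At an unadjusted limma p under 0.05, 1363 of the 12393 genes were lower and 1456 higher. The 10 genes were named with earlier results of these data known, so their share is a description. The median difference of the 10 genes was -0.11 log2 units, against -0.04 over all genes, with 5 below 0 and 5 above. All values are bleomycin minus saline in log2 units, and a difference of 1 is a 2-fold change.

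**Figure D1:**
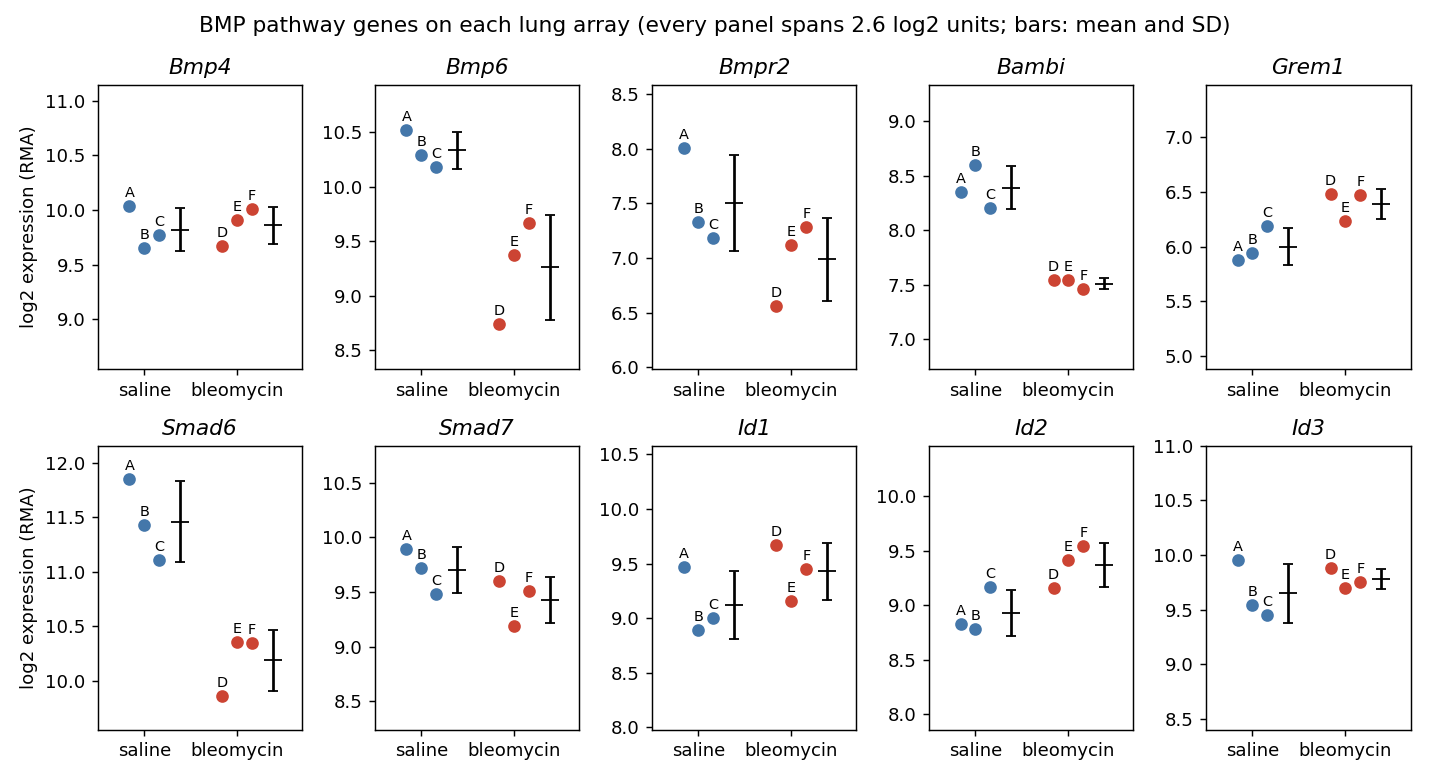
Log2 expression of the 10 genes on each of the 6 arrays (y axis, RMA values), with saline arrays A to C in blue and bleomycin arrays D to F in red, and group mean and SD (n = 3) as black bars. The groups lie apart for Bmp6, Bambi, Smad6 and Grem1, and overlap for Bmp4, Bmpr2, Smad7, Id1, Id2 and Id3.

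The ligand Bmp6 is best known for its control of hepcidin and iron, and is also made in lung. Its log2 level was 10.52, 10.29 and 10.18 on saline arrays A, B and C and 8.74, 9.37 and 9.67 on bleomycin arrays D, E and F. Every bleomycin array lay below every saline array, as for 14.6% of all genes, with D lowest. The means were 10.33 ± 0.17 and 9.26 ± 0.48 (SD, n = 3 each), a difference of -1.07 ± 0.22 (SE, limma adjusted p = 0.0347, 95% interval -1.58 to -0.56). It stood in place 45 from the bottom among the 12393 genes ordered by difference. The call was the least steady of the 3: it did not pass when saline A (-0.97, adjusted p = 0.113), B (-1.09, 0.0761) or C (-1.14, 0.0735) was left out, or bleomycin E (-1.12, 0.0576). Without bleomycin D the fall was smaller, -0.81, and passed (adjusted p = 0.0373).

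Bmp4, a ligand that shapes the lung buds and their epithelium during development, stood at 10.04, 9.65 and 9.77 in saline lungs and at 9.67, 9.91 and 10.01 in bleomycin lungs. The groups overlapped fully. The difference was 0.04 ± 0.14 (SE, limma adjusted p = 0.895), and its 95% interval ran from -0.28 to 0.36. Its sign turned when quantile normalization was repeated (-0.02), when arrays were centred on ribosomal protein genes (-0.01) and without saline B (-0.04) or bleomycin F (-0.03). Within each array, Bmp6 relative to Bmp4 shifted by -1.11 ± 0.19 (SE, n = 3 each), and the groups did not overlap in that measure. The exact two-sided permutation p was 0.1, the smallest that 3 arrays against 3 can give, and 0.35 after Benjamini-Hochberg adjustment over 7 such pairs.

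Bmpr2, the type II receptor, had log2 levels of 8.01, 7.33 and 7.18 after saline and 6.56, 7.12 and 7.28 after bleomycin. Saline A was the highest and bleomycin D the lowest, and the other 4 arrays overlapped. The difference of -0.52 ± 0.25 (SE) did not pass (limma adjusted p = 0.28), with an interval from -1.08 to 0.05 that includes 0. It was -0.26 without saline A and -0.30 without bleomycin D.

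Bambi encodes a transmembrane protein that resembles a type I receptor but has no kinase domain and damps signalling by BMP and TGF-beta receptors. Its log2 level was 8.35, 8.60 and 8.20 in saline lungs and 7.54, 7.54 and 7.46 in bleomycin lungs. The bleomycin arrays lay close together and below every saline array. The means were 8.39 ± 0.20 and 7.51 ± 0.05 (SD, n = 3 each), and the difference of -0.87 ± 0.13 (SE) had the lowest p of the 10 genes (limma adjusted p = 0.00895). The call held in each of the 6 fits with 1 array left out (differences -0.96 to -0.77, adjusted p 0.0149 to 0.0452). Without saline B the difference was -0.77 (adjusted p = 0.023), and without bleomycin D it was -0.89 (0.0214).

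Gremlin 1, the product of Grem1, binds BMP ligands outside the cell and keeps them from their receptors. Its probe set stood at 5.88, 5.94 and 6.19 in saline lungs and at 6.48, 6.23 and 6.47 in bleomycin lungs, with 21.1% of genes below it by mean level. The bleomycin arrays all lay above the saline arrays, as they did for 13.3% of all genes, but only narrowly, 6.23 against 6.19 at the nearest. The difference of 0.39 ± 0.13 (SE) did not pass (limma adjusted p = 0.129). With no detection calls used here, it was not examined whether a level near 6 exceeds the background of the array.

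Smad6 and Smad7 are the inhibitory Smads: Smad6 acts mainly on BMP signalling and Smad7 on both BMP and TGF-beta signalling, and both are themselves induced by the pathways they inhibit. Smad6 stood at 11.85, 11.43 and 11.11 on the saline arrays and at 9.86, 10.36 and 10.35 on the bleomycin arrays. Every bleomycin array lay below every saline array, and D was again the lowest. The means were 11.46 ± 0.37 and 10.19 ± 0.28 (SD, n = 3 each), and the difference was -1.27 ± 0.21 (SE, limma adjusted p = 0.0144, 95% interval -1.75 to -0.80). This was the largest fall of the 10 genes and stood in place 22 from the bottom of all 12393. Without saline B it was -1.29 (adjusted p = 0.0389) and without bleomycin D -1.11 (0.0333). Without saline A, the brightest array for this gene, it was -1.08 and did not pass (adjusted p = 0.0574).

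Smad7 had log2 levels of 9.89, 9.72 and 9.48 after saline and 9.60, 9.19 and 9.51 after bleomycin. The groups overlapped, and the difference was -0.26 ± 0.15 (SE, limma adjusted p = 0.358, 95% interval -0.61 to 0.08). Within each array, Smad6 relative to Smad7 shifted by -1.01 ± 0.28 (SE, n = 3 each). The groups did not overlap in that measure (exact two-sided permutation p = 0.1, the smallest possible, for this test with 3 arrays against 3, and 0.35 adjusted over the 7 pairs).

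The promoters of Smad6 and Bmp6, the genes with the largest falls of the 10, are shown with that of Id2, whose 3 probe sets lay above 0. RefSeq promoter entries on GRCm38.p6 matched 7 of the 10 genes: Bmp4, Bmp6, Bmpr2, Grem1, Smad6, Id2 and Id3. Each line gives the 250 bases before the annotated start, 5′ to 3′ on the strand of the gene, with capitals for the motifs searched on both strands. These were the BMP Smad motifs GGCGCC and GGAGCC and the Smad box CAGAC, and no match overlapped another. Smad6 lies on the minus strand at chr9:64022060-64022309, Bmp6 on the plus strand at chr13:38345466-38345715 and Id2 on the minus strand at chr12:25096093-25096342.
Smad6: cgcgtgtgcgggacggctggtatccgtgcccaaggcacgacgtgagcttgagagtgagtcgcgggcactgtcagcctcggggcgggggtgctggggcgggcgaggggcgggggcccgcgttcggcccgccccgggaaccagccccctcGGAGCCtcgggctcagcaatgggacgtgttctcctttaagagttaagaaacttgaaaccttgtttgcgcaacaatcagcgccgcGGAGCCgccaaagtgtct
Bmp6: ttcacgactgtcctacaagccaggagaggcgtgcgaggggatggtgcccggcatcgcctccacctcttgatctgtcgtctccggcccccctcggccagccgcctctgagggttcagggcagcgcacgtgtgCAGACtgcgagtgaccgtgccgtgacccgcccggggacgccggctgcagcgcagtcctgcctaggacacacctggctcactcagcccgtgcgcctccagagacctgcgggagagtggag
Id2: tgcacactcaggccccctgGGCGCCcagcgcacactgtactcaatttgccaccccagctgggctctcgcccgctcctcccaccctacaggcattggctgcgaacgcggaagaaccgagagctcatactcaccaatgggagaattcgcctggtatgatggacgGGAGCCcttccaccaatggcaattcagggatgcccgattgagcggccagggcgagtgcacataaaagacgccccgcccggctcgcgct

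The Smad6 window held GGAGCC at 2 places, starting 102 and 18 bases before the start, and no other motif searched. The Bmp6 window held the Smad box at a single place, 119 bases before the start. The Id2 window held both BMP Smad motifs, the palindromic GGCGCC 231 bases and the other 88 bases before the start. Among 32841 annotated windows of the same length, the palindromic motif was present in 9.6%, the other BMP Smad motif in 26.0% and the Smad box in 42.2%. The windows of the 7 genes held 62.8% to 72.0% G and C. The annotated windows were not matched for this, so the shares are no measure of enrichment. Genes that did not pass the test held the same motifs: the palindromic one was present in the windows of Bmpr2 and Grem1 as well as Id2, the other BMP Smad motif in those of Bmp4 and Id3 as well as Id2, and the Smad box in those of Grem1 and Id3. A match is a description of the letters in this window and not a site of binding.

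Id1, Id2 and Id3 encode helix-loop-helix proteins without a DNA-binding region, which bind E proteins and keep them off DNA, and are among the best known immediate targets of BMP Smads. None passed the test by its brightest probe set. Id1 stood at 9.47, 8.89 and 9.00 after saline and at 9.67, 9.16 and 9.45 after bleomycin, with overlapping groups and a difference of 0.31 ± 0.18 (SE, limma adjusted p = 0.378). Id3 stood at 9.95, 9.54 and 9.45 after saline and at 9.88, 9.70 and 9.75 after bleomycin, within the saline range, with a difference of 0.13 ± 0.15 (SE, limma adjusted p = 0.648). The lower bounds of their 95% intervals were -0.11 for Id1 and -0.20 for Id3.

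Id2 was read by 3 probe sets. The brightest gave 8.83, 8.78 and 9.17 after saline and 9.16, 9.41 and 9.54 after bleomycin, a difference of 0.44 ± 0.15 (SE) that did not pass (limma adjusted p = 0.133). Saline C and bleomycin D were the arrays that met. The next brightest gave 8.30, 8.18 and 8.29 after saline and 8.85, 8.83 and 8.72 after bleomycin. There the groups lay apart with a spread of 0.07 in each, and the difference of 0.55 ± 0.10 (SE) passed (limma adjusted p = 0.0243, against 3.29% of all probe sets called higher). The dimmest differed by 0.19 ± 0.17 (SE, adjusted p = 0.56). With 1 array left out, the next brightest probe set passed in 0 of 6 fits (differences 0.51 to 0.59, limma adjusted p 0.0627 to 0.0712). A rise of Id2 is thus called by 1 of its 3 probe sets, not by the brightest, and only with all 6 arrays. Within arrays, the changes of Id1 relative to Id2 (-0.13 ± 0.33, SE), Id1 relative to Id3 (0.17 ± 0.12) and Id2 relative to Id3 (0.31 ± 0.29) did not separate the groups (exact two-sided permutation p = 0.6, 0.3 and 0.3, n = 3 each, with 0.1 the smallest possible). The remaining pairs, Bambi relative to Bmpr2 (-0.36 ± 0.37, SE) and Grem1 relative to Bmp4 (0.35 ± 0.23), overlapped as well (exact p = 0.4 and 0.2, n = 3 each).

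The wider pathway was followed through the other genes listed for it. Of 52 other genes listed as ligands, receptors, Smads and regulators, antagonists and targets, 40 had a single-symbol probe set. Of these, 1 rose and 0 fell in limma (2 and 10 at an unadjusted p under 0.05), where 3.70% of all genes were called higher and 1.90% lower, so the count of 1 is near that background. Of the 40 genes, 30 lay below 0 and 10 above, and their median was -0.11. Over all 12393 genes, 7060 lay below 0, and 1363 were lower and 1456 higher at an unadjusted limma p under 0.05.

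All 9 other ligands lay below 0 by their brightest probe sets (-0.44 to -0.04, median -0.21), and 0 passed (2 lower at an unadjusted p under 0.05). Other probe sets of Bmp5 (0.05) and Bmp7 (0.00 and -0.05) differed little. Several ligands were dim, with saline means of 5.06 for Bmp8a, 5.15 for Bmp8b, 5.66 for Bmp15 and 5.97 for Gdf5. It was not examined whether such levels exceed the background of the array. Bmp2, which uses the same type I receptors as Bmp4, had the largest difference, -0.44 ± 0.12 (SE, limma adjusted p = 0.0762). Its saline mean was only 4.81, and it passed with a trended robust variance prior (adjusted p = 0.0276). Gdf2, which encodes BMP9, the circulating ligand of endothelial receptors, differed by -0.31 ± 0.14 (SE, limma adjusted p = 0.255).

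The 7 other receptors and co-receptors had a median of -0.45, the lowest of the 5 pathway groups, and 0 passed by their brightest probe sets (5 lower at an unadjusted p under 0.05). The type II receptors Acvr2a and Acvr2b differed by -0.65 ± 0.17 and -0.61 ± 0.15 (SE, limma adjusted p = 0.0726 and 0.0552), with groups apart for each. Acvr2a passed when quantile normalization was repeated (0.0488). Its other probe set differed by -0.14 (limma adjusted p = 0.464), and the mean of its probe sets by -0.40 (0.0966). Acvr2b passed with the milder filter on dim probe sets (0.0473), with the trended prior (0.0468), with array weights (0.0359) and with the mean of each gene's probe sets (0.0391). Acvrl1, the endothelial type I receptor ALK1, differed by -0.61 ± 0.20 (SE, limma adjusted p = 0.133), with overlapping groups. The type I receptor Bmpr1a differed by -0.31 ± 0.10 (SE, adjusted p = 0.133) by its brightest probe set, and by -0.19 to 0.07 in its others. Acvr1 differed by 0.21 ± 0.19 (SE, adjusted p = 0.558), but by -0.30 and -0.00 in its other probe sets, so its direction was not settled.

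Endoglin, the product of Eng, is an endothelial co-receptor of ALK1, and its probe sets differed. The brighter stood at 11.71, 11.22 and 11.49 after saline and at 11.04, 10.82 and 11.22 after bleomycin (-0.45 ± 0.16, SE, limma adjusted p = 0.149). The dimmer stood at 10.58, 10.69 and 10.58 after saline and at 9.62, 9.63 and 9.69 after bleomycin. In the latter the groups lay far apart, and the difference of -0.97 ± 0.10 (SE) passed (limma adjusted p = 0.00213), also in each of the 6 fits with 1 array left out (adjusted p 0.00673 to 0.0148). Its limma adjusted p was 0.00932 without saline B and 0.00673 without bleomycin D. With the mean of the probe sets Eng passed too (-0.71, adjusted p = 0.00676).

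Among the other Smads and regulators, 0 of 8 passed (1 lower at an unadjusted p under 0.05). The signalling Smads Smad1, Smad5 and Smad9 differed by 0.35 ± 0.18, -0.11 ± 0.13 and -0.14 ± 0.10 (SE, limma adjusted p = 0.298, 0.667 and 0.459). Smad4, the partner they share with the TGF-beta Smads, differed by -0.33, -0.56 and -0.41 in its 3 probe sets, and none passed (adjusted p = 0.135, 0.0747 and 0.148). Smad4 passed only with the mean of its probe sets (-0.43, adjusted p = 0.0497).

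Of 10 other antagonists, 1 rose and 0 fell (2 and 0 at an unadjusted p under 0.05). Fstl1, follistatin-like 1, a secreted glycoprotein that binds BMP4, stood at 10.40, 9.65 and 9.81 after saline and at 11.55, 10.70 and 11.19 after bleomycin. Its groups lay apart and it rose by 1.19 ± 0.25 (SE, limma adjusted p = 0.035), and by 1.13 ± 0.16 in its other probe set (adjusted p = 0.0092, and 0.00411 to 0.042 with 1 array left out). By the brighter probe set the limma adjusted p was 0.0536 without saline A, 0.105 without saline C and 0.105 without bleomycin F. Without saline B the rise was 1.04 (adjusted p = 0.0885) and without bleomycin D 0.99 (0.0836), and neither passed. Fst, which encodes follistatin, differed by 0.86 ± 0.36 (SE, limma adjusted p = 0.213), with a spread of 0.87 between bleomycin lungs. Noggin (Nog) and chordin (Chrd), the classical BMP antagonists, differed by 0.07 ± 0.13 and -0.02 ± 0.13 (SE, adjusted p = 0.799 and 0.958).

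Among 6 other targets, 0 passed by their brightest probe sets (2 lower at an unadjusted p under 0.05). Id4, the relative of Id1 to Id3, lay below 0 in all 3 of its probe sets. The brightest differed by -0.62 ± 0.22 (SE, limma adjusted p = 0.155), and another passed, with 7.75, 7.54 and 7.69 after saline and 6.94, 7.17 and 6.99 after bleomycin (-0.63 ± 0.12, SE, adjusted p = 0.0223). That probe set did not pass without saline A, saline C, bleomycin D or bleomycin F (adjusted p 0.0614 to 0.0889). It passed without saline B (limma adjusted p = 0.0366) and without bleomycin E (0.0336). With the mean of its probe sets Id4 passed as well (-0.53, adjusted p = 0.0321). The endothelial target Atoh8 differed by -0.12 ± 0.10 and Hey1 by -0.37 ± 0.15 (SE, adjusted p = 0.544 and 0.2).

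**Figure D2:**
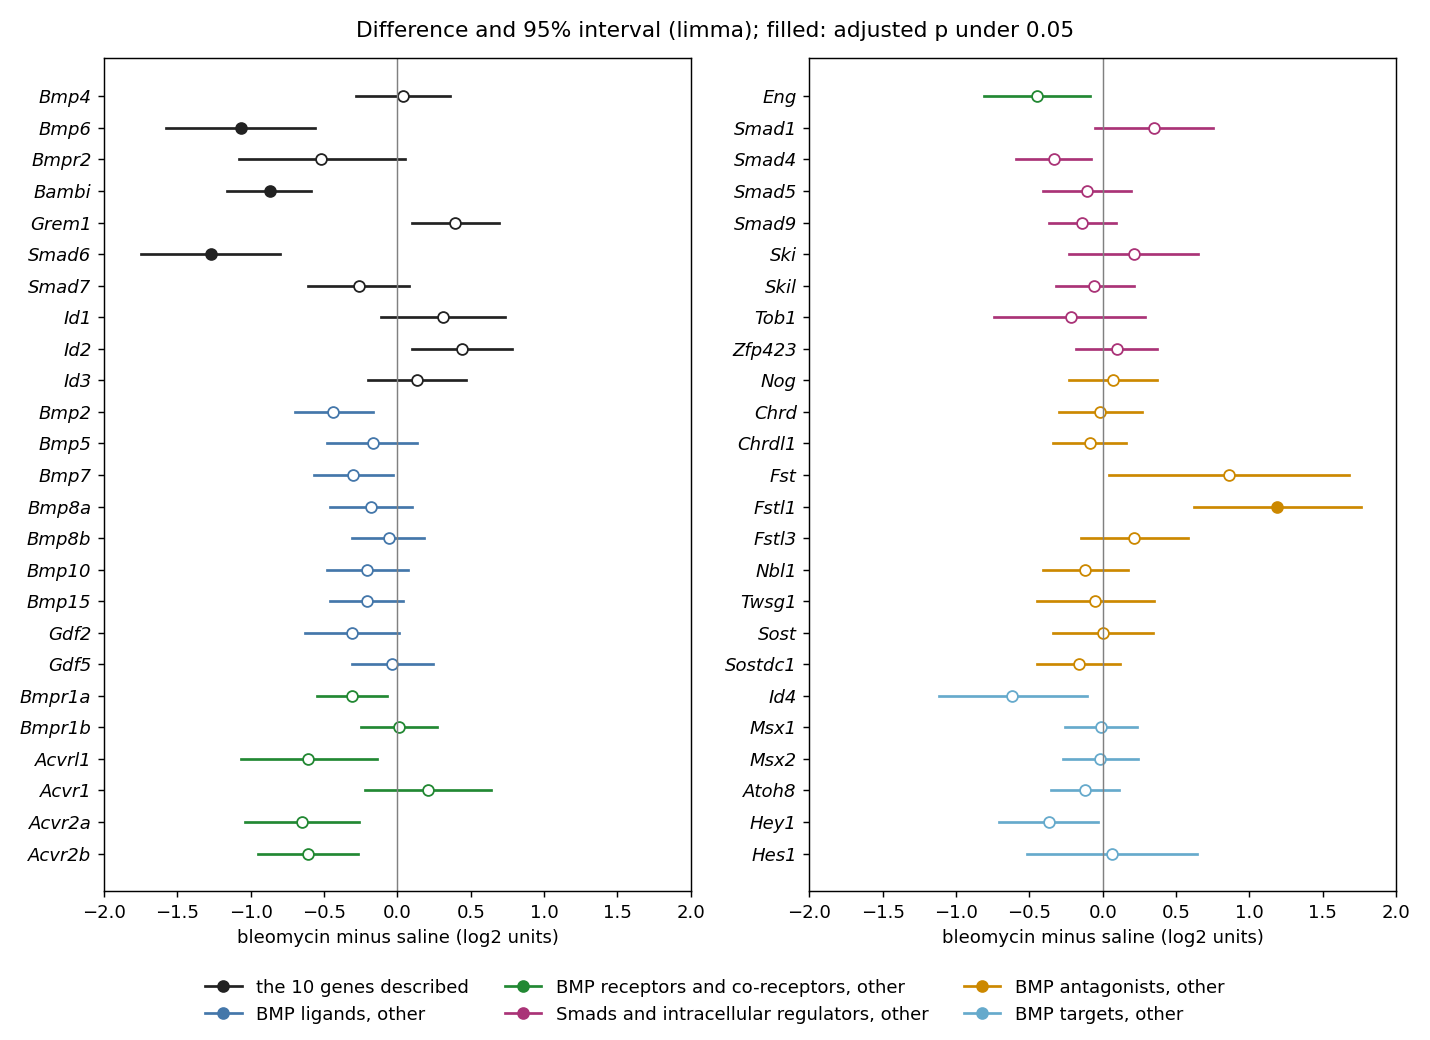
Bleomycin minus saline difference in log2 units (x axis) with its 95% interval for the 10 genes in black and 40 other pathway genes in colours by role. Filled points passed a limma adjusted p of 0.05: Bmp6, Bambi and Smad6 below 0 and Fstl1 above.

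Endothelial markers moved in the same direction as the genes that fell, and so did several other marker lists. Medians also lay below 0 for cardiac muscle (-0.71), alveolar type 1 (-0.39), B and plasma cell (-0.33), alveolar type 2 (-0.24) and airway markers (-0.19). They were nearer 0 for T and natural killer cell (-0.10), smooth muscle and pericyte (-0.08) and fibroblast markers (-0.04). Medians lay above 0 only for macrophage (2.57) and mesothelial markers (0.18). Of 16 endothelial markers, 3 fell and 0 rose (Kdr, the VEGF receptor, by 0.86, the phosphatase Ptprb by 0.83 and the adrenomedullin co-receptor Ramp2 by 0.87), 15 lay below 0 and the median was -0.37. At an unadjusted limma p under 0.05, 8 of the 16 were lower and 0 higher. Over all 12393 genes, 1.90% were called lower and 3.70% higher, and 7060 lay below 0. Without saline A, 0 of the 16 were called (adjusted p 0.0584 for Kdr and Ramp2 and 0.0816 for Ptprb). Leaving out bleomycin F ended the calls of Kdr (0.0508) and Ptprb (0.0685), and Ptprb did not pass either when saline B (0.0578) or bleomycin D (0.0561) was removed. The sum of their levels, taken back from log2, was 27289 to 33143 in saline lungs and 19687 to 23665 in bleomycin lungs. None of them read at 0, and the lowest saline mean among them was 7.48. The adhesion molecule Pecam1 (-0.13 ± 0.17, SE, limma adjusted p = 0.708) and the sialomucin Emcn (0.26 ± 0.23, adjusted p = 0.56) did not pass. Macrophage markers moved the other way: 10 of 11 rose, the same 10 with any 1 array left out, and their summed level was 7486 to 9797 in saline and 24500 to 24941 in bleomycin lungs. Alveolar type 1 markers had a median of -0.39, with 1 of 7 lower (Hopx, -0.44 ± 0.10, SE, limma adjusted p = 0.0466). The Hopx call was lost in each of the 6 fits with 1 array left out (adjusted p 0.0822 to 0.16), with the milder filter on dim probe sets (0.0533) and with ribosomal centring (0.108). In whole lung, fewer cells of a type and less RNA per cell cannot be told apart.

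Relative to the mean of the 16 endothelial markers in the same array, Smad6 stood at 1.27, 1.09 and 0.86 on the saline arrays and at -0.04, 0.38 and 0.21 on the bleomycin arrays. The groups stayed apart, and the difference was -0.89 (limma adjusted p = 0.000525), against -1.27 in the values as deposited. Bmp6 stood at -0.06, -0.05 and -0.08 after saline and at -1.16, -0.61 and -0.47 after bleomycin, a difference of -0.68 that passed in this scale (limma adjusted p = 0.0103). Bambi stood at -2.23, -1.73 and -2.05 after saline and at -2.36, -2.44 and -2.69 after bleomycin, a difference of -0.49. Its groups were still apart, but it did not pass in this scale (limma adjusted p = 0.0783). Bmpr2 (-0.13) and Smad7 (0.12) overlapped in this measure. Id1 (0.69), Id2 (0.83), Id3 (0.52), Bmp4 (0.43) and Grem1 (0.78) lay above on every bleomycin array, where the median of all genes is shifted to 0.35. The share of all genes with groups apart in that scale was not counted, so the separation is only a description. In that scale the calls over all genes were 2884 higher and 71 lower, against 458 and 236 in the values as deposited. There limma gave every gene the same standard error of 0.21, so a gene's own spread between arrays did not enter these p-values. The part of any cell type in the falls, endothelial cells included, was not tested.

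**Figure D3:**
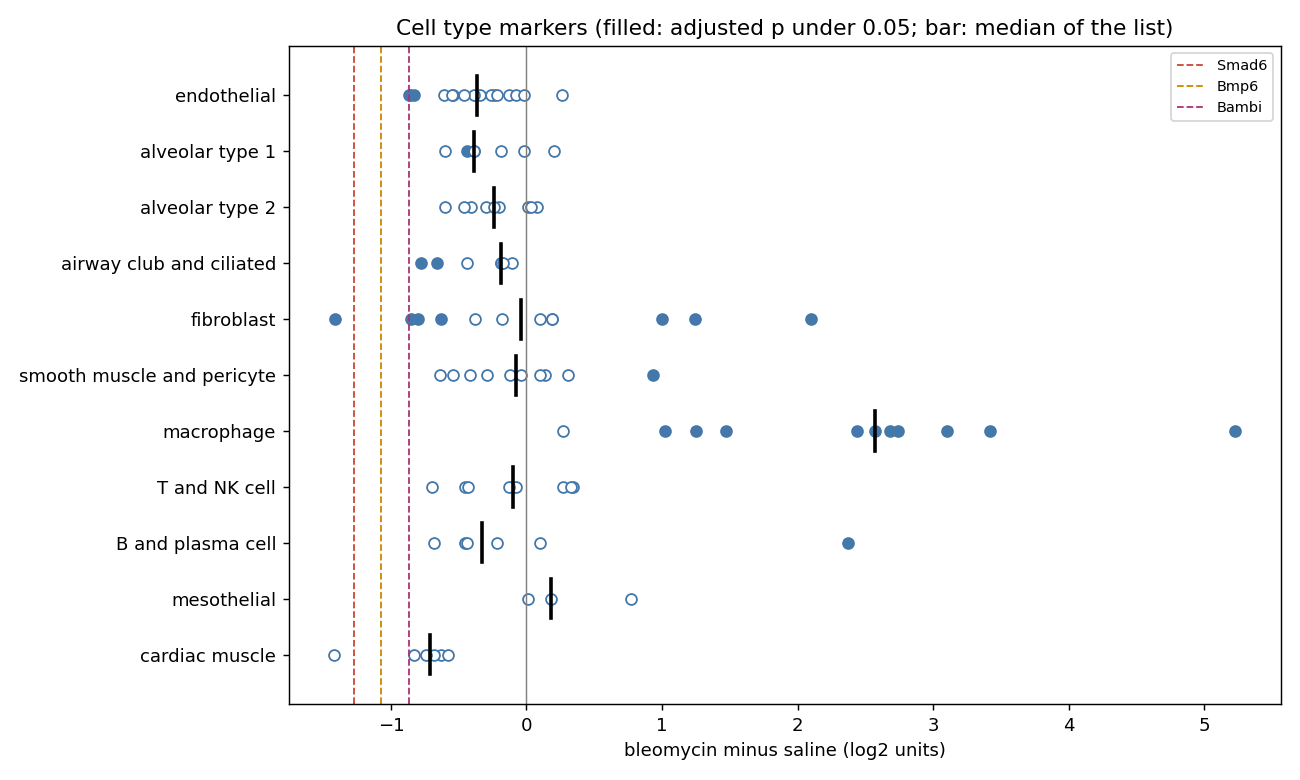
Bleomycin minus saline difference in log2 units (x axis) of each marker gene (points), by cell type list (rows), with the list median as a black bar and the differences of Smad6, Bmp6 and Bambi as dashed lines. Filled points passed a limma adjusted p of 0.05, and the endothelial median lies at -0.37 and the macrophage median at 2.57.

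The differences of the 10 genes under every setting are shown together. Bambi kept its call under 14 of 15 alternatives, Smad6 under 13 and Bmp6 under 10. The largest departures for the 3 were toward 0, at -0.49, -0.89 and -0.68, with the endothelial markers as reference.

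**Figure D4:**
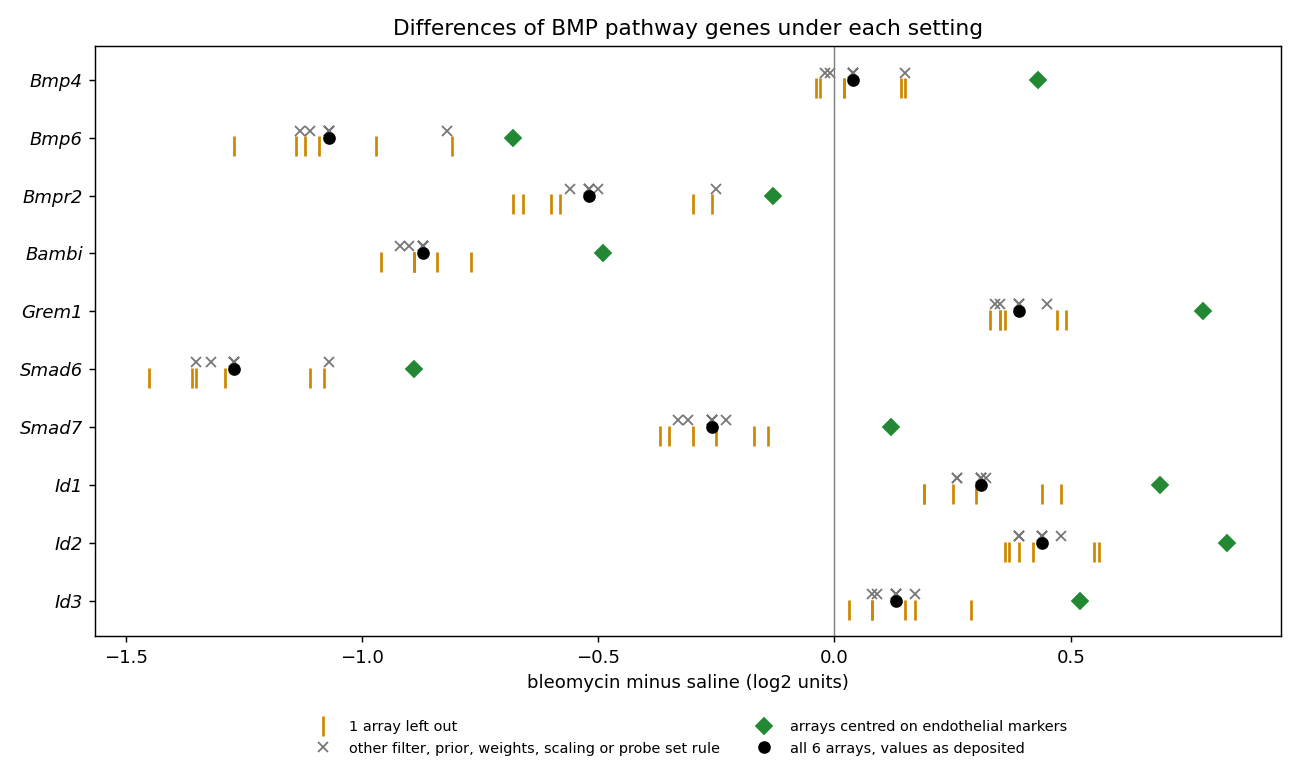
Bleomycin minus saline difference in log2 units (x axis) of the 10 genes (rows) with all arrays (black circles), with 1 array left out (orange ticks), under other processing settings (grey crosses) and relative to endothelial markers (green diamonds). Smad6, Bmp6 and Bambi stay below 0 throughout, while Bmp4 and Smad7 are found on both sides of 0.

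The genes whose pattern over the 6 arrays was most like each gene that fell were found by the root mean square distance between log2 profiles, each less its own mean. Closest to Smad6 were Fibin (distance 0.129, difference -1.22), the flavin monooxygenase gene Fmo1 (0.175, -1.19) and Tmem47 (0.177, -1.05). Closest to Bmp6 were the transcription factor genes Zbtb20 (0.108, -1.01) and Hoxb5 (0.121, -1.23) and again Fmo1 (0.113, -1.19). Closest to Bambi were Fign (0.084, -0.74), Ankrd33b (0.103, -0.85) and Ttc28 (0.113, -0.88). All 6 arrays enter this distance, so the difference between the groups is part of it.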

How the data were processed

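Each value was a log2 expression level per probe set that the authors computed by RMA with quantile normalization, per the labels. The sources used here do not state the software version, background step or chip definition, and the log2 scale was read from the values. After removal of 64 control probe sets, 22626 were tested, of which 20380 carried 1 symbol in GEO's platform annotation, 20351 of them updated by Entrez ID to RefSeq (GRCm38.p6 names). Probe sets with several symbols (691) or none (1555) named no gene.

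The groups were fitted with limma 3.58.1 in R 4.3.3 (lmFit and eBayes, no covariates, Benjamini-Hochberg over all tested probe sets, threshold 0.05). Each array is 1 mouse, and the letters A to F pair no arrays. Exact permutation tests used all 20 assignments. In a simulation of this comparison over 22626 probe sets with independent noise, the same fit found 84 of 100 changes of 1 log2 unit and 100 of 100 of size 2, and 6 of its 190 calls were false. There the noise of a probe set had the same spread on all 6 arrays. In the data, array weights ran from 0.4976 to 2.374, so these rates may not hold for the real arrays.

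The 10 genes and the lists were chosen with earlier results of these data known. The text names the 10 genes, called or largest-difference genes of each pathway list, the 3 nearest profiles of each called gene, and further pathway and marker genes chosen after their values were seen. Alternatives were a milder filter (dimmest 25% of probe sets left out), a stricter one (50%), a trended robust variance prior, array weights, repeated quantile normalization, centring on 26 ribosomal protein or 16 endothelial genes, probe set means, a threshold of 0.01 and leaving out each array. Plots used matplotlib 3.10.9 in Python 3.11.15.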

Additional observations from a re-analysis of the deposited data

How the results depend on the processing

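Over 10 genes and their alternatives, 132 of 148 values kept direction and side of the threshold, 8 lost a call, 3 gained a call and 5 changed sign. With 1 array left out, 185 to 550 genes were called, against 694. Between 1 and 3 of the 10 genes were then lower (only Bambi without saline A) and 0 to 1 other pathway genes higher. At an adjusted p of 0.01, 163 genes, 1 of the 10 genes (Bambi, lower) and 0 other pathway genes passed. Centred on endothelial markers, 2955 of 12393 genes were called, 2884 higher and 71 lower. Of the 10 genes, 3 (Id1, Id2 and Grem1) were then higher and 2 lower (Smad6 and Bmp6, while Bambi lost its call). Of the 40 other pathway genes, 6 were higher. Other pathway genes lower, 0 in the main analysis, were 1 with the milder filter on dim probe sets, 2 with the trended robust prior, 1 with array weights, 1 with repeated quantile normalization and 4 with the mean of probe sets. Bmp4 changed sign with repeated quantile normalization (-0.02) and ribosomal centring (-0.01), and ran from -0.04 to 0.15 with 1 array left out. With endothelial centring Smad7 (0.12) and Tcf12 (0.08) changed sign. The mesothelial marker Upk3b ran from -0.26 to 0.46 with 1 array left out. Fits with 1 array left out hold fewer arrays, and centring adds an offset to each array. The cause of these shifts was not tested. Repeated quantile normalization turned the split of calls from 458 higher and 236 lower to 407 and 310. Leaving out an array moved it the other way, most without saline A (163 higher and 22 lower) and least without bleomycin E (385 and 165). Without scanner files, signal over background was not examined, and Bmpr2 and Grem1 are dropped by the stricter filter on dim probe sets.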

Other observations

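The E proteins, the helix-loop-helix transcription factors that Id proteins bind, were measured through Tcf3, Tcf4 and Tcf12. All 3 lay below 0 by their brightest probe sets and 0 passed in limma (1 at an unadjusted p under 0.05). Tcf3 differed by -0.14 ± 0.16 (SE, limma adjusted p = 0.661), but by 0.17 and 0.11 in its other probe sets. Tcf12 differed by -0.30 ± 0.13 (SE, adjusted p = 0.23), but its other probe set differed by 0.15 ± 0.15. Tcf4 differed by -0.15 ± 0.11 (SE, adjusted p = 0.465), with its 6 probe sets between -0.34 and -0.02.

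Of the other marker lists, alveolar type 2 markers had 0 of 9 called (2 lower at an unadjusted p under 0.05) and a median of -0.24. Airway markers had 2 of 7 lower, Cyp2f2 (-0.66, limma adjusted p = 0.0463) and Cbr2 (-0.78, 0.0342). With 1 array left out, each passed only without bleomycin E (adjusted p otherwise 0.0639 to 0.122 for Cyp2f2 and 0.0607 to 0.106 for Cbr2), and Cyp2f2 did not pass with repeated quantile normalization (0.0545) or ribosomal centring (0.068). Fibroblast markers moved in both directions, with 3 of 12 higher (Col1a1, Col1a2 and Lum) and 4 lower (Tcf21, Inmt, Itga8 and Limch1). Of these 7, Limch1 passed in each of the 6 fits with 1 array left out and Col1a1 in all but the one without bleomycin F (adjusted p = 0.0619). Inmt lost its call without saline A (0.0863), B (0.0639) or C (0.0614), Col1a2 without saline A, B or C or bleomycin F, Lum without saline A or B or bleomycin D or F, Itga8 without saline A or B or bleomycin E or F, and Tcf21 in all but the fit without saline C. Of 10 smooth muscle and pericyte markers 1 rose, Rgs5 (not called without bleomycin F, adjusted p = 0.0553), and of 6 B and plasma cell markers 1 rose, the immunoglobulin joining chain Jchain. T and natural killer cell markers (0 of 9 called, 1 lower at an unadjusted p under 0.05), mesothelial markers (0 of 3, and 0 at an unadjusted p under 0.05) and cardiac muscle markers (0 of 6, 5 lower at an unadjusted p under 0.05) had no call in limma. All 6 cardiac markers lay below 0, with a median of -0.71. Over all 12393 genes, 1.90% were called lower and 3.70% higher, and 1363 were lower and 1456 higher at an unadjusted limma p under 0.05.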
